A study of Mus musculus with 4 samples.

Results

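Smooth muscle contractile genes were followed as 36 named genes that encode the filaments, regulators, attachment proteins, channels and transcription factors of smooth muscle. They were found by symbol among the 18194 genes of the array, and each was read from its probe set with the highest mean value. All 36 had a probe set, and 76 probe sets carried their symbols. A gene entered the counts when it reached a log2 value of 6, called the floor here, on at least 1 array. This left 11871 genes, among them 35 of the 36. Kcnmb1, the beta-1 subunit of the BK potassium channel, stayed under the floor with 5.11 to 5.58. The other 35 reached 6 on every array, so none of them was counted only through the array where it was highest.

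The arrays measured total RNA of mucosa scraped from the colon of 129S6/SvEv mice, 5 weeks old, on standard chow. The 4 genotypes had 1 array each. VhlΔIE/Apcmin/+ mice combined the intestine-specific knockout of Vhl with the Min allele of Apc, an intestinal tumour model (5 mice in the design text). VhlF/F/Apcmin/+ mice carried floxed Vhl and the Min allele (3 mice), VhlΔIE mice carried the Vhl knockout alone (3 mice) and VhlF/F mice carried floxed Vhl alone (4 mice). Neither pooling of the mice for an array nor the promoter that drove the recombinase is given in the labels. Values are log2 RMA values, so a difference of 1 is a 2-fold difference. With 1 array per genotype no difference has a replicate check and no test was made.

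Smooth muscle of the gut lies in the outer muscle coat, in the thin muscularis mucosae under the crypts and around blood vessels. Contraction follows when calcium and calmodulin activate myosin light chain kinase, the phosphorylated myosin pulls on actin filaments, and a myosin phosphatase ends the cycle. Filaments are anchored at dense bodies and at dense plaques of the membrane. Many of the genes are driven by serum response factor with its coactivator myocardin, through the CArG box of their promoters. Scrapings are mainly epithelium and lamina propria, and in such bulk RNA fewer muscle cells and less RNA per cell cannot be told apart.

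The labels were checked first. Vhl read 6.56 in the VhlΔIE/Apcmin/+ array against 8.17 in the VhlF/F/Apcmin/+ array, and 7.03 in the VhlΔIE array against 8.40 in the VhlF/F array. The array's 4 Cre probe sets read 7.41 to 9.95 in both VhlΔIE arrays and 2.97 to 4.45 in both VhlF/F arrays. Xist read 6.25 and 5.58 in the arrays with deleted Vhl, with and without the Apc mutation, against 11.83 and 11.37 in those with floxed Vhl. The Y-linked Eif2s3y read 8.80 and 8.78 with deleted Vhl, against 7.27 and 8.58 with floxed Vhl. Xist was thus high in the floxed arrays alone and Y-linked RNA was read on all 4, so the makeup of the arrays by sex differed with Vhl status, and its part in the Vhl differences was not tested. The defining smooth muscle markers Acta2, Actg2, Myh11, Tagln, Des and Cnn1 read between 10.71 and 12.92, far above the floor on all 4 arrays, so muscle RNA was present in every scraping.

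With Vhl deletion, nearly all smooth muscle genes read slightly lower, in both Apc backgrounds. In the VhlΔIE/Apcmin/+ array 33 of 35 read lower than in the VhlF/F/Apcmin/+ array, where 53.5% of all genes above the floor did. In the VhlΔIE array 34 of 35 read lower than in the VhlF/F array, against 53.3% of all genes. The median differences were -0.33 with and -0.40 without the Apc mutation, which is 20.7% and 24.5% lower on the linear scale. Over all genes the medians were -0.02 and -0.02. The 2 comparisons share no array. Higher values were read for 2 and 1 of the 35, against 46.5% and 46.6% of all genes. Cyclic loess normalization turned the sign of values close to 0, of Kcnma1 with the Apc mutation and of Cnn2, Itga8 and Mustn1 without it. Of the 61 probe sets of these genes above the floor, 52 were lower with and 57 without the Apc mutation, against 54.6% and 53.7% of all probe sets with 1 symbol.

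The differences were small for single genes. No smooth muscle gene was 2-fold lower or higher in either background, where 1.52% of all genes were lower and 2.82% higher with the Apc mutation, and 1.6% and 2.27% without it. At 1.5-fold, 4 of 35 were lower with the Apc mutation and 11 without it, against 5.15% and 5.08% of all genes. None was 1.5-fold higher in either, against 7.19% and 6.22%. As a yardstick, the Vhl differences of different probe sets of 1 smooth muscle gene had a pooled standard deviation of 0.23 with and 0.20 without the Apc mutation, over 42 probe sets of 16 genes. This spread lies within arrays and is no replicate error. Beyond it, 25 of 35 genes were lower with the Apc mutation, against 21.3% of all genes, and 29 of 35 without it, against 24.4%.

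Both arrays with deleted Vhl read below both arrays with floxed Vhl for 31 of the 35 genes, a pattern that 33.4% of all genes showed. The 4 genes without it were Cnn2, Lmod1, Ldb3 and Pln. Ldb3 showed the opposite order, as did 27.7% of all genes. The VhlF/F array was the highest of the 4 for 28 of 35, against 25.5% of all genes. The VhlΔIE/Apcmin/+ array was the lowest for 27 of 35, against 26.0% of all genes. Among the 15 smooth muscle genes with a mean of at least 10, all read lower in both arrays with deleted Vhl. The pattern held for 36.6% of all genes at that level. Of these 15, 0 were 1.5-fold lower with the Apc mutation and 5 without it, against 4.44% and 3.68% of genes at that level.

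**Figure D1:**
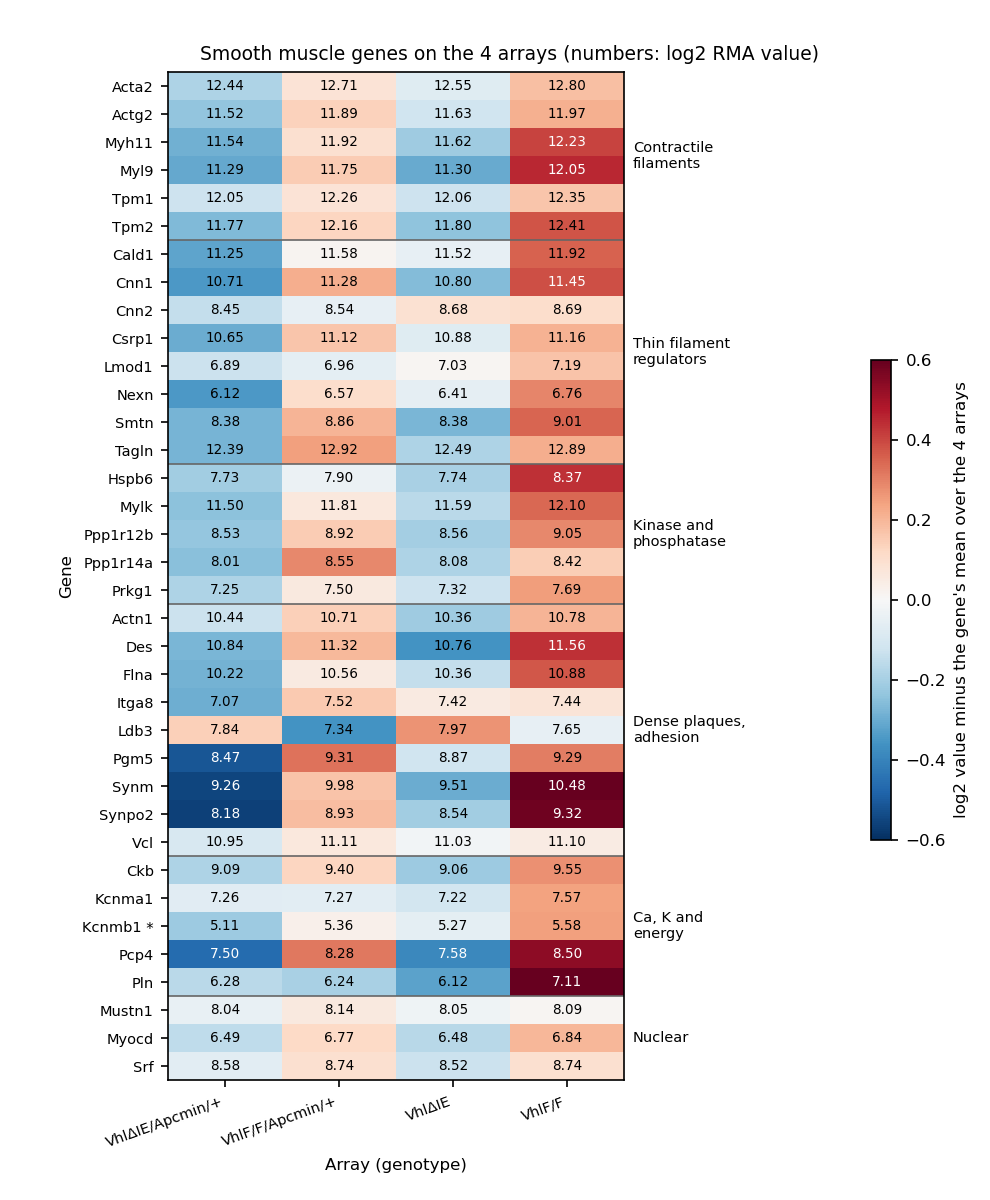
Each row is a smooth muscle gene, grouped by role, and each column an array; numbers are log2 RMA values, and colours give the value minus the gene's mean over the 4 arrays. The 2 columns of deleted Vhl are mostly blue and the VhlF/F column is the highest for 28 of the 35 genes above the floor; the star marks Kcnmb1, which stayed under it.

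All 6 genes of the contractile filaments read lower in both backgrounds, with medians of -0.38 with and -0.47 without the Apc mutation. Of all genes, 53.5% read lower with and 53.3% without it. Acta2, smooth muscle alpha actin, read 12.44 in the VhlΔIE/Apcmin/+ array against 12.71 in the VhlF/F/Apcmin/+ array, and 12.55 in the VhlΔIE array against 12.80 in the VhlF/F array. Its differences of -0.27 and -0.25 were just past the spread between probe sets. Its probe set is of a kind that can match several transcripts. A second Acta2 probe set above the floor differed by -0.55 and -0.58, so the size was not the same for both probe sets.

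Actg2, the gamma actin typical of gut muscle, read 11.52 against 11.89 with the Apc mutation and 11.63 against 11.97 without it, deleted before floxed Vhl in each pair. Myh11, the smooth muscle myosin heavy chain, read 11.54 against 11.92 and 11.62 against 12.23 in the same pairs. For both genes the lower array of the floxed pair still lay above the higher array of the deleted pair. Myl9, the regulatory myosin light chain, differed by -0.46 with and -0.76 without the Apc mutation. The tropomyosins Tpm2 and Tpm1, which cover the actin filament, differed by -0.39 and -0.62 and by -0.21 and -0.29. A second bright Tpm2 probe set differed by -0.56 and -0.66, and a dimmer one by 0.21 and -0.08.

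Regulators of the thin filament and other actin binders gave medians of -0.46 with and -0.38 without the Apc mutation. All 8 were lower in both, against 53.5% of all genes with and 53.3% without it. Cnn1, calponin 1, which restrains actin-activated myosin, read 10.71 in the VhlΔIE/Apcmin/+ array against 11.28 in the VhlF/F/Apcmin/+ array, and 10.80 in the VhlΔIE array against 11.45 in the VhlF/F array. Tagln, the actin binder transgelin, read 12.39 against 12.92 with the Apc mutation and 12.49 against 12.89 without it. Both genes fully separated the arrays by Vhl status.

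Cald1, caldesmon, read 11.25 against 11.58 with and 11.52 against 11.92 without the Apc mutation. Of its other probe sets above the floor 1 went the other way, by 0.58 and 0.18, and the mean over all its probe sets differed by -0.01 and -0.14. Nexn, the actin binder nexilin, was the dimmest of the group, with 6.12 against 6.57 and 6.41 against 6.76. Smtn, smoothelin, differed by -0.48 and -0.62, and Csrp1, a LIM protein of actin bundles, by -0.46 and -0.28. The small end of the group held Cnn2, the calponin that non-muscle cells also make, at -0.09 and -0.02, and Lmod1, the actin nucleator leiomodin, at -0.07 and -0.16. These values lay inside the spread between probe sets.

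The genes grouped as kinase and phosphatase regulators, Hspb6 among them, were lower as well, with medians of -0.31 and -0.49. That held for 5 of 5 in both backgrounds, against 53.5% of all genes with and 53.3% without the Apc mutation. Mylk, myosin light chain kinase, differed by -0.31 with and -0.51 without the Apc mutation, and its other 2 probe sets by -0.43 to -0.72. Ppp1r14a, an inhibitor of myosin phosphatase, differed by -0.54 and -0.33. Ppp1r12b, a targeting subunit of that phosphatase, differed by -0.38 and -0.49, so the kinase, the phosphatase subunit and the inhibitor all lay on the same side. Prkg1, the cyclic GMP-dependent kinase that relaxes smooth muscle, differed by -0.24 and -0.38. Hspb6, a small heat shock protein of muscle, read 7.73 against 7.90 with the Apc mutation and 7.74 against 8.37 without it, and here the VhlF/F array alone stood high.

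The widest range was found among intermediate filament, dense plaque and adhesion genes, with medians of -0.45 and -0.42. In both backgrounds 8 of 9 were lower, against 53.5% of all genes with and 53.3% without the Apc mutation. Des, the intermediate filament desmin, read 10.84 in the VhlΔIE/Apcmin/+ array against 11.32 in the VhlF/F/Apcmin/+ array, and 10.76 in the VhlΔIE array against 11.56 in the VhlF/F array. Synm, synemin, which joins desmin to the membrane, read 9.26 against 9.98 with and 9.51 against 10.48 without the Apc mutation. Its second probe set differed by -0.62 and -0.79, against -0.72 and -0.97 for the first. Synemin was thus among the genes with the largest differences in both backgrounds.

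Synpo2, an actin-bundling protein of dense bodies and Z-discs, read 8.18 against 8.93 with the Apc mutation and 8.54 against 9.32 without it. Its other 3 probe sets, 1 of them under the floor, were lower too, with differences of -0.64 to -0.11. Pgm5, a phosphoglucomutase relative found at adherens junctions and dense plaques, read 8.47 against 9.31 with and 8.87 against 9.29 without the Apc mutation. The difference of -0.84 in the first pair was the largest of any smooth muscle gene with the Apc mutation. Itga8, the integrin alpha-8 chain, read 7.07 against 7.52 with the Apc mutation and 7.42 against 7.44 without it, so only the VhlΔIE/Apcmin/+ array stood low.

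Flna, filamin A, differed by -0.33 and -0.51 and Actn1, alpha-actinin 1, by -0.27 and -0.42. Vcl, vinculin, differed by -0.16 and -0.07, inside the spread between probe sets. Ldb3, a PDZ and LIM protein of the Z-disc, was the 1 gene higher in both backgrounds. It read 7.84 in the VhlΔIE/Apcmin/+ array against 7.34 in the VhlF/F/Apcmin/+ array, and 7.97 in the VhlΔIE array against 7.65 in the VhlF/F array. A second Ldb3 probe set above the floor was higher by 0.54 and 0.36, against 0.50 and 0.32 for the first.

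Among genes of calcium, potassium and energy handling, medians over 4 genes above the floor were -0.16 with and -0.71 without the Apc mutation. Pcp4, a small calmodulin-binding protein, read 7.50 against 8.28 with the Apc mutation and 7.58 against 8.50 without it, among the largest differences in both pairs. Pln, phospholamban, which restrains the calcium pump of the sarcoplasmic reticulum, read 6.28 in the VhlΔIE/Apcmin/+ array against 6.24 in the VhlF/F/Apcmin/+ array, and 6.12 in the VhlΔIE array against 7.11 in the VhlF/F array. It stood high in the VhlF/F array alone. All 3 Pln probe sets shared this, with differences of -1.39 to -0.997 without the Apc mutation and -0.19 to 0.04 with it. Ckb, brain-type creatine kinase, differed by -0.31 and -0.50, and Kcnma1, the pore subunit of the BK channel, by -0.01 and -0.35. Its partner Kcnmb1, under the floor, differed by -0.25 and -0.31.

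**Figure D2:**
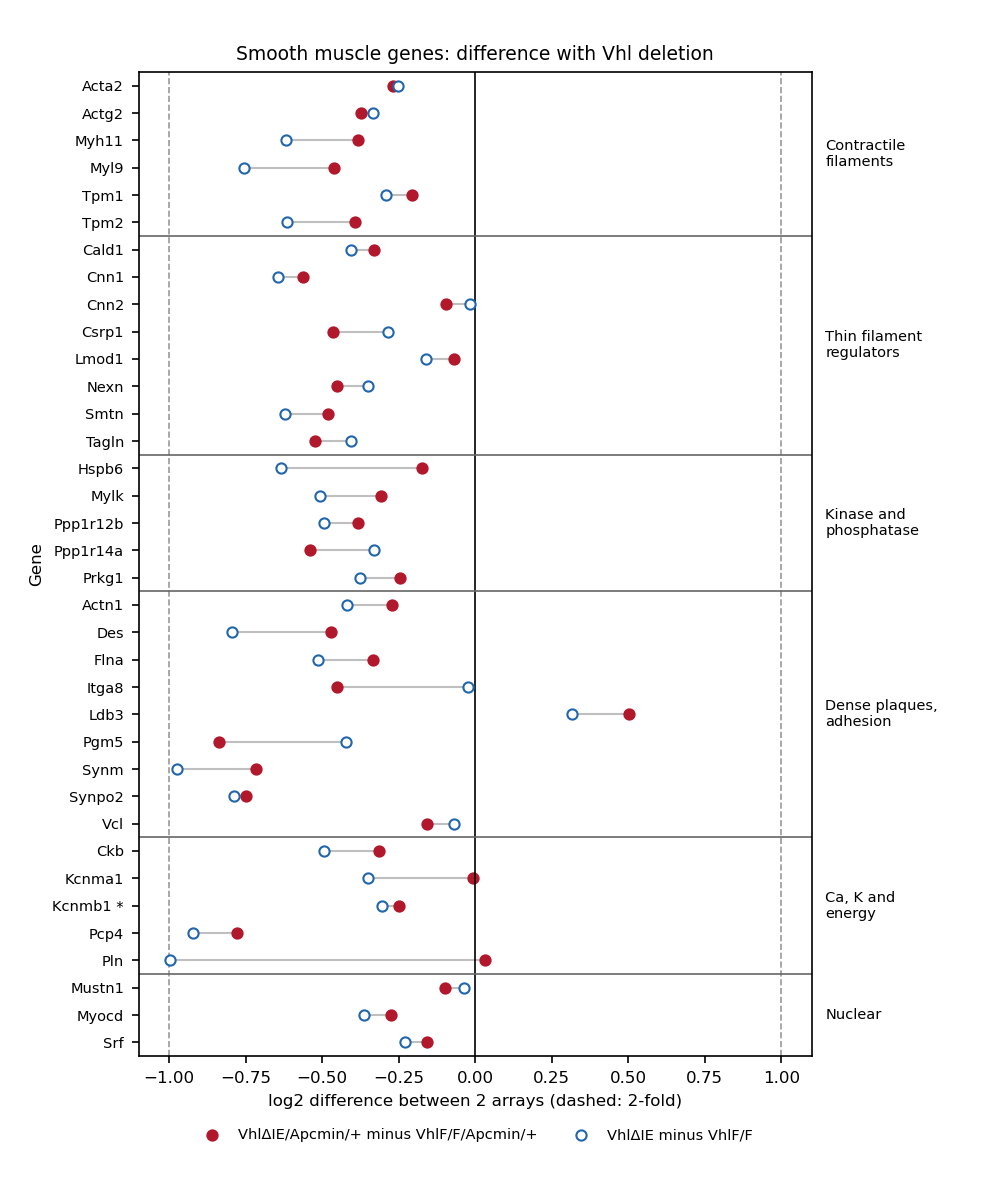
Each row is a smooth muscle gene and the horizontal axis is the log2 difference with Vhl deletion, filled for VhlΔIE/Apcmin/+ minus VhlF/F/Apcmin/+ and open for VhlΔIE minus VhlF/F; dashed lines mark 2-fold. Points lie left of 0 for 33 and 34 of the 35 genes above the floor, Ldb3 lies right of 0 in both, and Pln has the widest gap between its points; the star marks Kcnmb1, under the floor.

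The 3 nuclear proteins had medians of -0.16 with and -0.23 without the Apc mutation. Myocd, myocardin, read 6.49 in the VhlΔIE/Apcmin/+ array against 6.77 in the VhlF/F/Apcmin/+ array, and 6.48 in the VhlΔIE array against 6.84 in the VhlF/F array. Srf, serum response factor, read 8.58 against 8.74 with and 8.52 against 8.74 without the Apc mutation. A second Srf probe set of similar level went the other way, by 0.14 and 0.18, so the direction of Srf was not settled. Mustn1, a small nuclear protein of muscle, differed by -0.10 and -0.04. Outside the 36 genes, the myocardin-related cofactors of Srf, Mrtfb and Mrtfa, differed by -0.39 and -0.37 and by -0.13 and -0.29.

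Promoters were read to see which of the genes carry the CArG box that serum response factor binds. RefSeq promoter windows (GRCm38.p6), from 250 bases before to 50 after a transcription start, were matched by symbol for 31 of the 36 genes, and 5 of the 31 (16.1%) held a full CArG box. Actg2, Myh11, Myocd, Nexn and Tagln were not matched. Over the 27025 genes of the same table the share was 1.81%. The pattern searched was a pair of C, 6 bases that are each A or T, and a pair of G, which reads alike on both strands. With 1 of the 10 letters allowed to differ, the shares were 41.9% and 23.8%. The 5 genes were Srf itself, Myl9, Vcl, Cnn2 and Ldb3. Their 250 bases before the start are shown 5′ to 3′ as those of the set that hold the CArG box, with the full CArG boxes in capitals, and for Ldb3 with the first of 2 overlapping windows.
Srf (chr17:46556163-46556412, minus strand): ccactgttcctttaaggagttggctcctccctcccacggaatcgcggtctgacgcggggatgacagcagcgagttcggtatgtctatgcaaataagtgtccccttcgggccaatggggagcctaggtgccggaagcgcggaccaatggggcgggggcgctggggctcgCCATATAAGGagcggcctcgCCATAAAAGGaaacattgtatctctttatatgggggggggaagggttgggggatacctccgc
Myl9 (chr2:156775214-156775463, plus strand): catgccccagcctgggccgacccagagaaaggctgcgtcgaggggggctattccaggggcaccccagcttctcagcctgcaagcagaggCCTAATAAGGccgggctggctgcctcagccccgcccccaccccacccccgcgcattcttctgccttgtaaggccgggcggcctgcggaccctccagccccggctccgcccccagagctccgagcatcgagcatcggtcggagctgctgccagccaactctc
Vcl (chr14:20929148-20929397, plus strand): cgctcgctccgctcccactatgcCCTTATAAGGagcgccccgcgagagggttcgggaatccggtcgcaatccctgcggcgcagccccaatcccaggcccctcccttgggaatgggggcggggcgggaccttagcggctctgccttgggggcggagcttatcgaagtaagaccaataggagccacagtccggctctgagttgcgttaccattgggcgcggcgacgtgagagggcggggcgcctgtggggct
Cnn2 (chr10:79988350-79988599, plus strand): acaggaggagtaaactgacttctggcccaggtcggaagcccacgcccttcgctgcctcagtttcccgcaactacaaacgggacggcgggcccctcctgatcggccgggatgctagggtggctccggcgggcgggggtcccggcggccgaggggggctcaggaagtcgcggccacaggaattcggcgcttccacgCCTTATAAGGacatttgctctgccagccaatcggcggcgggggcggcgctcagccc
Ldb3 (chr14:34588608-34588857, minus strand): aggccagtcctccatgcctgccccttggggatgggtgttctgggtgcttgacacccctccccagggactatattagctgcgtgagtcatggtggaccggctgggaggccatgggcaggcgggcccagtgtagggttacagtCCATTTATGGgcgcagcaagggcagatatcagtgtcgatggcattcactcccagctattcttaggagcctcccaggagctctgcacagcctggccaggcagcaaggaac
Srf held CArG boxes that start 82 and 62 bases before the transcription start, and the others 1 box each. Of these 5 genes, Myl9 differed by -0.46 and -0.76, whereas Srf, Vcl and Cnn2 lay at the small end and Ldb3 was higher. A match is a description of these letters and not a shown binding site.

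Acta2 held no full CArG box in the window but a pair of stretches with 1 letter off, 84 and 34 bases before the start, shown in capitals here as the best-known promoter of the group.
Acta2 (chr19:34255374-34255623, minus strand): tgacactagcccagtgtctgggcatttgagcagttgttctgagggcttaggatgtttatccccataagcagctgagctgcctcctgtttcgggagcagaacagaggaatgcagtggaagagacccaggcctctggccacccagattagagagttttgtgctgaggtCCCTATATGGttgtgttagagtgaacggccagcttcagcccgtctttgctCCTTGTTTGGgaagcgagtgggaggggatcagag
The cores ACGTG and GCGTG, which hypoxia-inducible factors can bind, were searched on both strands in the whole windows. One or both were present for 58.1% of the 31 genes and for 46.7% of all genes in the table.

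**Figure D3:**
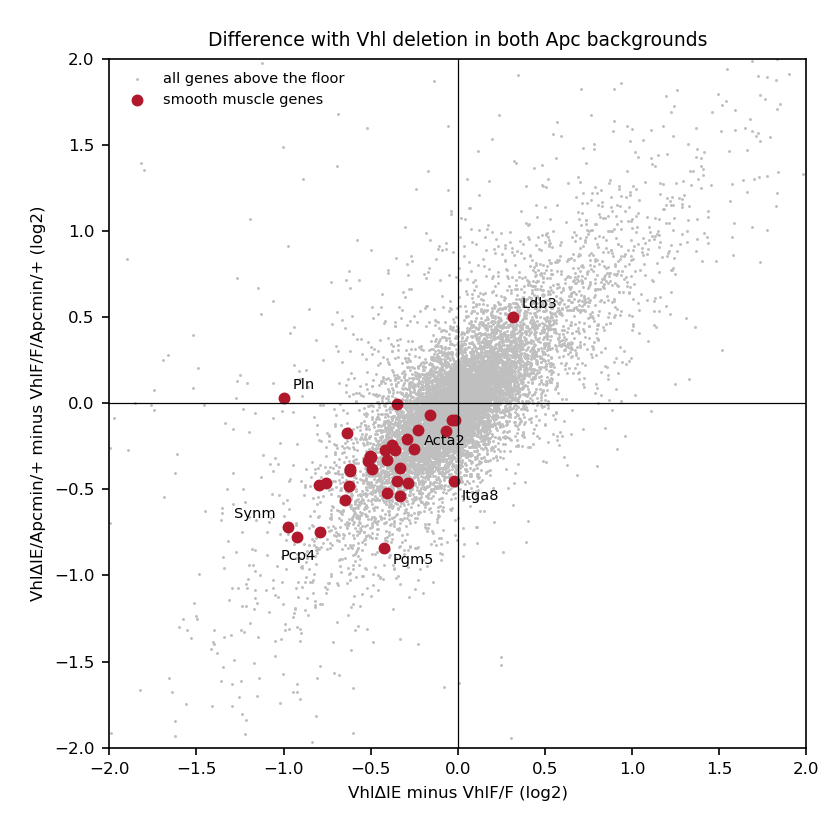
Each point is a gene above the floor, with VhlΔIE minus VhlF/F on the horizontal and VhlΔIE/Apcmin/+ minus VhlF/F/Apcmin/+ on the vertical axis, both in log2; smooth muscle genes are red, and 144 genes lie outside the axes. The red points lie mostly in the lower left, with Ldb3 in the upper right and Pln far left on the horizontal axis alone.

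The Vhl difference was less negative with the Apc mutation than without it for 24 of 35 genes, against 48.2% of all genes. The median of this difference between backgrounds was 0.09, against -0.01 over all genes. Pln had the widest difference between backgrounds, 1.03, followed by Hspb6 at 0.46. On the other side stood Itga8 at -0.43 and Pgm5 at -0.42. These differences were not tested.

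Other genes that take part in smooth muscle contraction, a list of 50 not among the 36, moved less evenly. Of these, 43 had a probe set and 36 reached the floor. With the Apc mutation 23 were lower and 13 higher, against 53.5% and 46.5% of all genes, with a median of -0.14. Without it 19 were lower and 17 higher, against 53.3% and 46.6% of all genes, with a median of -0.11. The count without the Apc mutation was thus near the share over all genes. Sgca reached the floor only on the floxed arrays and Cacna1c only on the VhlF/F array, and both counted as lower. Trpc4 was under the floor on the VhlF/F array alone and counted as higher. Cav1, the main protein of caveolae, which endothelium also makes, was higher by 1.35 and 1.35. Fhl1, a LIM protein of muscle, was higher by 0.54 and 0.91. Hand2, a transcription factor of gut mesenchyme and neurons, was lower, with differences of -0.72 and -0.74. Actin and myosin genes of non-muscle cells had medians of -0.02 and 0.03 over 12 genes, of which Tpm4, a tropomyosin, was highest at 0.60 and 0.59. Cald1 stands in this list as well.

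Markers of neighbouring cells moved with the smooth muscle genes in part. For enteric neurons and glia, some of which lie between the muscle layers, 10 of 16 markers reached the floor. Of these, 9 of 10 were lower in each background, against 53.5% of all genes with and 53.3% without the Apc mutation. The medians were -0.48 with and -0.17 without it. Elavl3 read under the floor on both arrays with deleted Vhl, so it entered the count through the floxed arrays. Stmn2, a neuronal protein, differed by -1.11 and -0.55. The summed linear level of these markers was 1413.5 in the VhlΔIE/Apcmin/+ array against 2105.5 in the VhlF/F/Apcmin/+ array, and 2167.9 in the VhlΔIE array against 2481.0 in the VhlF/F array. Of 7 markers of interstitial cells of Cajal, the pacemakers of gut muscle, 3 reached the floor, and all 3 were lower in both. Ano1 differed by -0.83 and -0.23 and Kit by -0.04 and -0.66.

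Endothelial markers lay on the other side, and those of mural cells and fibroblasts did not all go one way. For endothelium, all 15 markers read higher after Vhl deletion, by medians of 0.81 and 1.14. Over all genes, 46.5% read higher with and 46.6% without the Apc mutation. Cldn5 differed by only 0.004 with the Apc mutation. Cdh5, Tek and Tie1 read under the floor on both floxed arrays, so they entered the count through arrays with deleted Vhl. At least 2-fold higher in both backgrounds were Emcn (2.00 and 2.25), Flt1 (1.69 and 1.46), Plvap (1.38 and 1.39), Kdr (1.27 and 1.18) and Ptprb (1.05 and 1.21). Of all genes, 2.82% were that far higher with and 2.27% without the Apc mutation. The summed level of the 15 was 4363.8 against 2086.3 with and 4580.7 against 2018.7 without the Apc mutation. Of 10 vascular mural markers 8 reached the floor, with medians of 0.45 and 0.37, of which 7 were higher and 1 lower with the Apc mutation and 5 higher and 3 lower without it. Notch3 was higher by 0.79 and 1.24 and Pdgfrb by 0.53 and 0.38, while Ndufa4l2 is also induced by hypoxia and was higher by 5.52 and 5.76. Fibroblast markers had medians of 0.15 and 0.21 over 11 of 14, with 6 higher and 5 lower with the Apc mutation and 10 higher and 1 lower without it. Pdgfra was higher by 0.70 and 0.78, whereas Lum differed by -0.91 and -0.10. Epithelial markers had medians of 0.11 and 0.04 over all 12. Adipocyte markers had medians of 0.58 and -0.05 over 5 of 9. Of 6 mesothelial markers only Krt7 reached the floor, with -0.56 and -0.34. The others stayed under it, so Krt7 alone gives no reading of mesothelium. The share of each cell type in the scrapings was not measured, and its part in the smooth muscle differences was not tested.

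**Figure D4:**
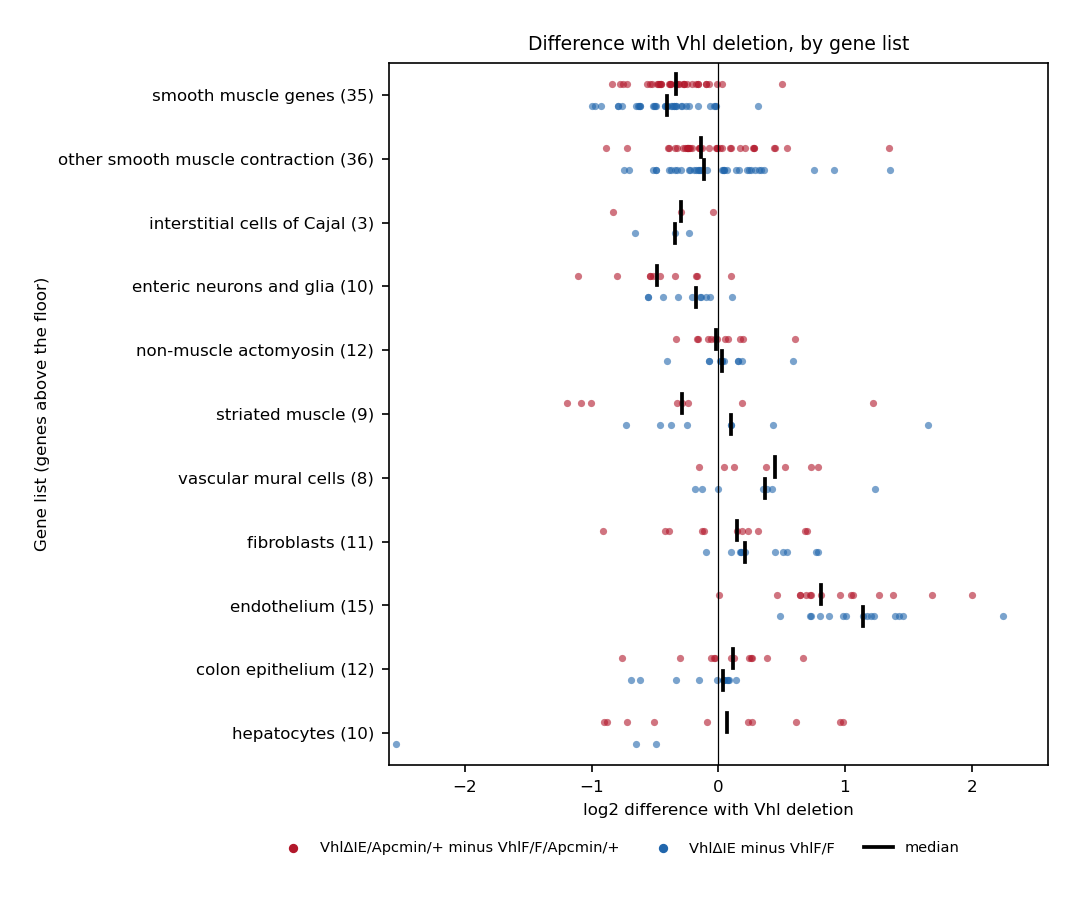
The horizontal axis is the log2 difference with Vhl deletion, red for VhlΔIE/Apcmin/+ minus VhlF/F/Apcmin/+ and blue for VhlΔIE minus VhlF/F; each point is a gene above the floor, rows are gene lists with their number of genes, bars are medians, and 11 values lie outside the axes. Smooth muscle genes, interstitial cells of Cajal and enteric neurons lie mostly left of 0, endothelium lies right of it, and the hepatocyte median of the blue set falls outside the axes.

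Striated muscle genes were mostly silent. Of 26 listed, 9 reached the floor, with medians of -0.29 with and 0.10 without the Apc mutation. Myl7, the atrial light chain, read 12.92 in the VhlΔIE/Apcmin/+ array against 6.59 in the VhlF/F/Apcmin/+ array, and 12.77 in the VhlΔIE array against 7.08 in the VhlF/F array. Tnni2, a fast skeletal troponin, was higher by 1.22 and 1.66, and Acta1, the skeletal actin, differed by -1.0 and -0.73. Tnni2 and Myl3 read under the floor on both floxed arrays, so they entered through arrays with deleted Vhl. Tnni1 differed by -1.20 and -0.37. Tnnt2, under the floor in the VhlΔIE/Apcmin/+ array, differed by -1.08 and -0.25. Of the 9, 6 were lower with and 4 without the Apc mutation, against 53.5% and 53.3% of all genes. Myl7 thus lay far from Myl9, its smooth muscle counterpart, in direction and size.

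Hepatocyte transcripts set the VhlF/F array apart. Alb, albumin, read 7.08 in the VhlΔIE/Apcmin/+ array, 6.10 in the VhlF/F/Apcmin/+ array, 7.25 in the VhlΔIE array and 11.53 in the VhlF/F array. Of 10 hepatocyte markers, 8 were likewise highest there, whereas Ttr and Tat were highest in the VhlF/F/Apcmin/+ array. Their median Vhl differences were 0.07 with and -3.65 without the Apc mutation. Serpina1c, Tdo2, Bhmt and Mup3 reached the floor through the VhlF/F array alone and read 3.06 to 4.36 on the others. Cyp3a11 was under the floor on both arrays with the Apc mutation. Both medians thus rest in part on values under the floor. The part of this RNA in the smooth muscle differences was not tested.

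The Apc mutation went with smaller differences. With deleted Vhl, 28 of 35 smooth muscle genes read lower in the VhlΔIE/Apcmin/+ array than in the VhlΔIE array, against 49.4% of all genes, with a median of -0.08. The other 7 read higher, against 50.5%. With floxed Vhl, 29 of 35 read lower in the VhlF/F/Apcmin/+ array than in the VhlF/F array, against 49.1% of all genes, with a median of -0.17. The other 6 read higher, against 50.8%. The medians over all genes were 0.00 and 0.00. Both differences were lower than 0 for 22 of 35, against 28.6% of all genes. Each Apc difference shares its arrays with a Vhl difference above. Beyond the spread between probe sets for these differences, 0.11 in both, 13 genes were lower with deleted Vhl, against 24.3% of all genes. With floxed Vhl 22 were, against 27.0%.

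No smooth muscle gene was 2-fold lower or higher with the Apc mutation in either Vhl background, where 0.118% of all genes were lower and 0.202% higher with deleted Vhl, and 0.901% and 0.118% with floxed Vhl. At 1.5-fold, 1 gene was lower with floxed Vhl, against 2.36% of all genes, and none with deleted Vhl, against 0.792%. None was 1.5-fold higher, against 0.724% with deleted and 1.05% with floxed Vhl. That gene was Pln, at -0.87, with a difference of 0.16 with deleted Vhl. Synm differed by -0.25 with deleted and -0.51 with floxed Vhl, Synpo2 by -0.36 and -0.40, and Cald1 by -0.27 and -0.34. Hspb6 differed by -0.01 and -0.47. Pgm5, Itga8 and Nexn were among the lowest with deleted Vhl, at -0.40, -0.35 and -0.29, and differed by 0.02, 0.08 and -0.19 with floxed Vhl.

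Among filament genes the Apc differences were smaller for the actins than for Myh11 and Myl9 with floxed Vhl. Acta2 differed by -0.11 with deleted and -0.10 with floxed Vhl, Actg2 by -0.12 and -0.07, and Tagln by -0.09 and 0.03. Myh11 differed by -0.07 and -0.31, Myl9 by 0.00 and -0.30, Tpm2 by -0.03 and -0.25, and Des by 0.08 and -0.24. Myocd differed by 0.01 and -0.08, and Srf by 0.07 and 0.00. Enteric neuron and glia markers had larger medians than the smooth muscle genes, at -0.44 with deleted and -0.25 with floxed Vhl, and their part was not tested.

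**Figure D5:**
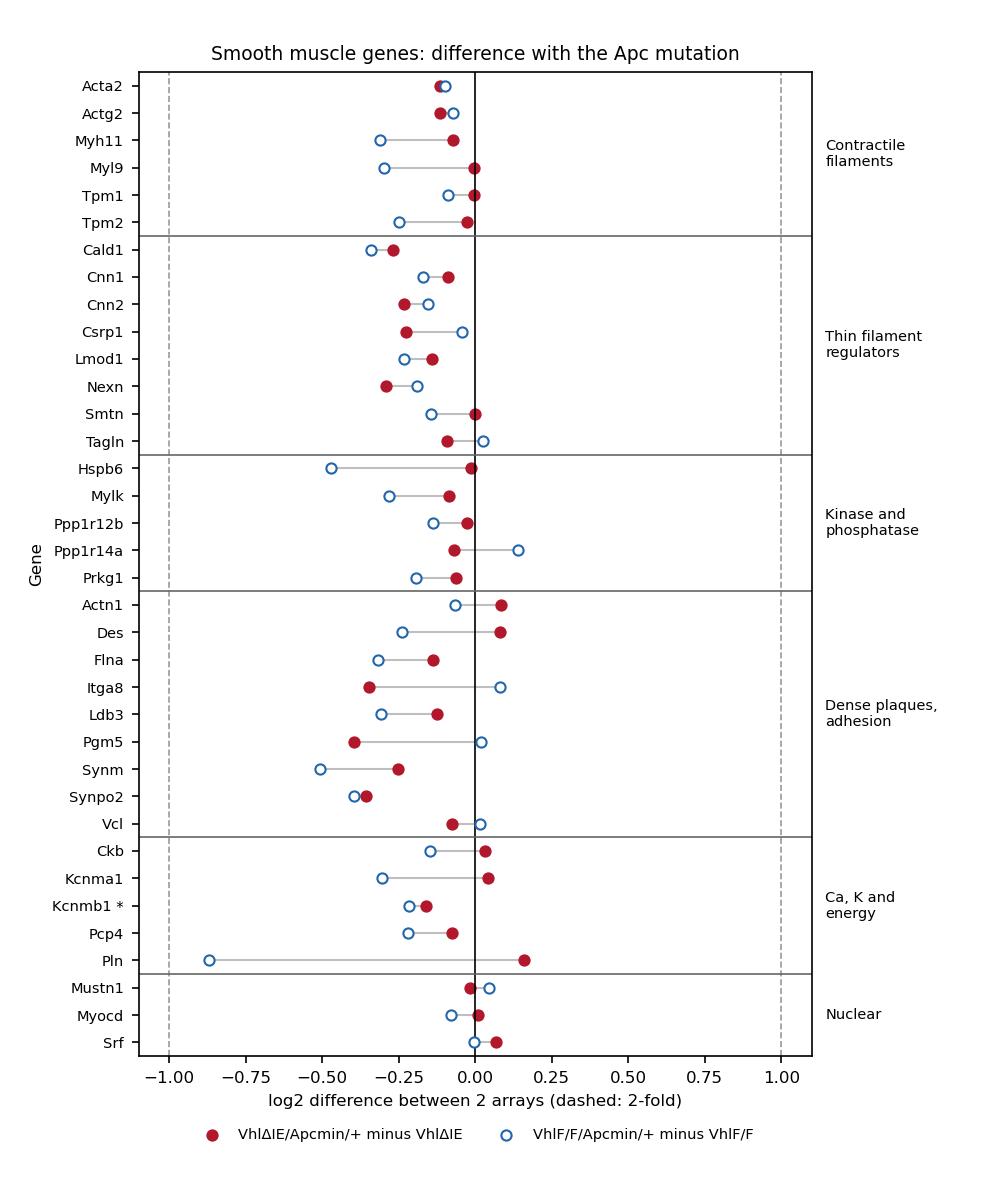
Each row is a smooth muscle gene and the horizontal axis is the log2 difference with the Apc mutation, filled for VhlΔIE/Apcmin/+ minus VhlΔIE and open for VhlF/F/Apcmin/+ minus VhlF/F; dashed lines mark 2-fold. Most points lie between -0.40 and 0 and none passes 2-fold; Pln is the farthest left with floxed Vhl, and the star marks Kcnmb1, under the floor.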

How the data were processed

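The values deposited are on the log2 scale. The submitters' processing notes name affy and RMA, which corrects background, equalises the distributions of arrays and summarises the probes of a set. A change common to most transcripts is thereby lost, and differences of dim genes are understated. Which arrays were normalized together is not given in the sources used here. The 45101 probe sets had no missing value, and array medians lay between 6.05 and 6.07. Arrays give no read depth, and their number limits the precision.

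Gene names came from GEO's platform annotation. A single symbol stood beside 34958 probe sets and several beside 932, which named no gene. List symbols were updated through RefSeq synonyms. Each gene took its probe set with the highest mean, with a floor of 6 on at least 1 array. Differences are 1 array minus another. Only the calls at 2-fold were tested on simulated data, with planted changes larger than 2-fold. Counts of smaller differences were not tested in this way. The members and lists were chosen with earlier results of these data known. Values on every array are given for 8 defining genes, for members at least 2-fold apart and for the 5 largest differences per comparison. Ldb3 was added after its values were seen. Of other lists, up to 3 genes with the largest Vhl difference are named, and Mrtfa, Mrtfb and others outside that rule were chosen after their values were seen. Alternatives were no floor, a floor of 7, values under 6 raised to 6, the mean over probe sets, probe sets whose suffix marks a match to several transcripts of one or more genes left out, cyclic loess and a 1.5-fold threshold. Cyclic loess was run in limma 3.58.1 (R 4.3.3), and all else in Python 3.11.15 with pandas 2.3.3, numpy 2.4.6 and, for plots, matplotlib 3.10.9.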

Additional observations from a re-analysis of the deposited data

Results flagged for a closer look

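Pln had Apc differences of opposite sign in the 2 Vhl backgrounds, 0.16 with deleted Vhl and -0.87 with floxed Vhl, each at least 0.1 from 0. The median of striated muscle genes differed by -0.12 with deleted and 0.16 with floxed Vhl, over 9 genes. The median of fibroblast markers differed by -0.14 with deleted and 0.36 with floxed Vhl, over 11 genes. The difference between the backgrounds was not tested in any of these, and each direction rests on 1 pair of arrays.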

How the results depend on the processing

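Over all alternatives the median difference of the smooth muscle genes lay between -0.37 and -0.30 for Vhl deletion with the Apc mutation and between -0.42 and -0.39 without it. For the Apc mutation it lay between -0.09 and -0.04 with deleted and between -0.20 and -0.15 with floxed Vhl. The median difference between the Apc backgrounds lay between 0.08 and 0.11. No median changed direction, but single genes did. Without probe sets whose suffix marks a match to several transcripts Tpm2 differed by 0.21 with the Apc mutation, and Srf by 0.14 with and 0.18 without it. With the mean over probe sets Pln differed by -0.04 with the Apc mutation. Cyclic loess turned Kcnma1 to 0.04 with it, and Cnn2, Itga8 and Mustn1 to 0.03, 0.02 and 0.01 without it. The other sign changes were in Apc differences within 0.1 of 0. The count of 0 genes 2-fold lower without the Apc mutation became 1, Pln, with the mean over probe sets. At a 1.5-fold threshold the counts of lower genes were 4 with and 11 without the Apc mutation, and 1 for the Apc mutation with floxed Vhl. Limited to genes with a mean of at least 10, an alternative added after seeing the data, 15 of 15 were lower with Vhl deletion in both backgrounds, against 54.8% and 53.1% of genes at that level, and 13 of 15 with the Apc mutation in both, against 54.4% and 52.5%. No paired analysis was possible because each genotype has 1 array and no replicate number repeats within it. A model with Vhl and Apc as additive terms over the 4 arrays was not run. The makeup of the arrays by sex differed with Vhl status. Actg2, Ckb, Csrp1 and Smtn have only probe sets with such a suffix.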
